A study of Mus musculus with 12 samples.

Results

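The 10 genes described here encode chains of the fibrillar collagens (Col1a1, Col1a2, Col3a1, Col5a1, Col5a2), of the type IV basement membrane network (Col4a1, Col4a2) and of the type VI microfilaments (Col6a1, Col6a2, Col6a3). They were taken by symbol from the authors' deposited pairwise tables, where they were 10 of 26015 genes with values in the complete table. The samples were 12 liver RNA libraries from C57BL/6N mice, 3 in each of 4 groups. Chow mice (replicates 8, 17 and 19) were kept on regular chow from 6 weeks of age for 15 weeks. HFD mice (4, 30 and 38) received high-fat diet over the same time, given per the labels to make them obese, and were not injected. HFD Vehicle mice (15, 23 and 55) had the same diet and a daily injection of 30% DMSO in corn oil for 4 days. HFD PCN mice (5, 11 and 27) had the same diet and 50 mg/kg pregnenolone 16α-carbonitrile (PCN), an agonist of the rodent pregnane X receptor, injected intraperitoneally on the same schedule. The diet was the only manipulation that distinguished HFD from Chow, and no group received PCN on regular chow. The labels do not say that each replicate is a separate animal, so p-values measure only the spread between these samples.

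Collagens are triple helices of chains in which glycine opens each triplet of residues along the helix, so their mRNAs repeat glycine codons over long stretches. In the liver, fibrillar types I, III and V form the fibres of scar tissue and are made mainly by hepatic stellate cells after activation and by portal fibroblasts. Type IV underlies basement membranes and the perisinusoidal space, where endothelial and stellate cells make it, and type VI forms beaded filaments that link cells to fibres.

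The coding sequences show how the families differ, so one stretch of each kind is printed first, from GENCODE M21 on GRCm38, 5′ to 3′ on the coding strand, with each glycine codon that opens a triplet of the repeat in capitals. In the fibrillar genes most of the repeat is 1 long uninterrupted run, beside 1 to 3 shorter runs of at least 3 triplets. The longest run of glycine triplets was 338 in Col1a1, 339 in Col1a2, 344 in Col3a1, 338 in Col5a1 and 339 in Col5a2. These genes had 21 to 29 coding exons of 54 bases each, against 1 to 3 in the other 5 genes. Between 76.6% (Col5a1) and 90.0% (Col1a2) of their inner coding exons had a length that is a multiple of 9 bases, against 14.3% of the 158933 inner coding exons of all genes. The first codon-aligned 54-base exon of each fibrillar gene is given here for its 6 glycine codons.
Col1a1, coding exon 8, chr11:94939904-94939957, plus strand: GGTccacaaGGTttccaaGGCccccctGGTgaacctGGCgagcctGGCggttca
Col1a2, coding exon 8, chr6:4515481-4515534, plus strand: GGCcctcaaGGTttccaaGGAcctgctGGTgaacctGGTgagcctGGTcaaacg
Col3a1, coding exon 6, chr1:45325360-45325413, plus strand: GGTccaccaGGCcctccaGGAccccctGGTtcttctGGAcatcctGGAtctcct
Col5a1, coding exon 15, chr2:27965251-27965304, plus strand: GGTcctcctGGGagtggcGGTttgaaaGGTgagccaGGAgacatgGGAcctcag
Col5a2, coding exon 10, chr1:45422386-45422439, minus strand: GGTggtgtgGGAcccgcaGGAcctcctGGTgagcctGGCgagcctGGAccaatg

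In the type IV genes the repeat is broken many times, which the next stretches show. Col4a1 held 23 runs of at least 3 triplets, the longest of 40, and Col4a2 held 24 runs, the longest of 66. The stretches below each hold 1 break of the repeat between intact triplets, 7 codons long in Col4a1 and 4 codons long in Col4a2.
Col4a1, coding exon 25, chr8:11227013-11227123, minus strand: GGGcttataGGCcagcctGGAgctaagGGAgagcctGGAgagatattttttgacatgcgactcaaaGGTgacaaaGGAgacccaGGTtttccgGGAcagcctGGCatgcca
Col4a2, coding exon 19, chr8:11415946-11416047, plus strand: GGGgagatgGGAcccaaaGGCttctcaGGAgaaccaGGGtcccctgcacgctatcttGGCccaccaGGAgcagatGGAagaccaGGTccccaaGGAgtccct
The type VI chains carry a short repeat between large globular domains. Their longest runs were 87 triplets in Col6a1, 87 in Col6a2 and 45 in Col6a3, and triplets in runs made up 31.9% of the codons of Col6a1. Col6a3 is the longest chain, at 3284 codons. The first 54-base exon of Col6a1 follows for comparison with the fibrillar exons.
Col6a1, coding exon 9, chr10:76719623-76719676, minus strand: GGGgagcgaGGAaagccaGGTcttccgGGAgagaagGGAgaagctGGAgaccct

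Several members are neighbours. Col4a1 (chromosome 8, 11198423 to 11312826, minus strand) and Col4a2 (11312805 to 11449287, plus strand) lie head to head and overlap by 22 bases. Col3a1 (chromosome 1, 45311538 to 45349706) and Col5a2 (45374321 to 45503282) are 24.6 kb apart on opposite strands. Col6a2 and Col6a1 follow each other on chromosome 10 with a gap of 85.2 kb. The sources used here do not say whether the counting used strand. The exons of Col3a1 share 141 bases with those of Gm47302 on the same strand, the longest such overlap among the 10 genes, so a small part of those reads cannot be assigned.

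The libraries behind the values differed in depth and completeness. Total counts were 7466378 to 38161486 in HFD and 19773547 to 22039805 in HFD Vehicle. In Chow and HFD PCN counts were at hand only for genes that a table listed, 2877 and 2455 of them, so the totals there are not known. All 10 collagen genes had counts in Chow, HFD and HFD Vehicle, and 6 of them (Col1a1, Col1a2, Col3a1, Col5a2, Col6a2, Col6a3) also in HFD PCN. Of the 4 without PCN counts (Col5a1, Col4a1, Col4a2, Col6a1), the call in each PCN comparison is known and the level is not. The lowest raw count among the 10 genes was 30 reads, for Col1a1 in Chow replicate 17, and the highest was 3956, for Col4a1 in HFD replicate 4. Before any comparison, 2 libraries stood apart within their groups. HFD replicate 38, the shallowest library, was the highest of its group for 10 of 10 collagen genes, against 37.9% of 13775 genes. HFD Vehicle replicate 15 was the lowest of its group for 10 of 10, against 27.9% of the same genes, and replicate 23 was the highest for 8 of 10, against 32.3%. Results that rest on either library are given with and without it.

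Diet was the comparison with the widest change. Levels are read counts divided by a library size factor, on 1 scale for the 12 libraries, and values follow the replicate order given above. A fold is the ratio of 2 group means, and a gene is called where the authors' deposited DESeq2 adjusted p is under 0.05. All 10 collagen genes rose with HFD against Chow, where 4.85% of about 25258 genes tested were called and 2.81% were called higher. The folds ran from 1.62 for Col4a2 to 8.74 for Col1a1, with a median log2 ratio of 1.32. Without HFD replicate 38 they ran from 1.49 for Col4a1 to 8.13 for Col1a1. In bulk liver RNA, more cells of a type and more RNA per cell cannot be told apart, and likewise for fewer cells and less RNA per cell. For each of the 10 genes the lowest HFD library lay above the highest Chow library, as it did for 99.6% of the 709 genes called higher.

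Type I collagen is the main component of scar fibres. Col1a1, its α1 chain, had normalized counts of 79.7, 38.3 and 59.7 in Chow and 486, 476 and 590 in HFD. It was the gene among the 10 with the smallest relative spread between HFD libraries after Col4a2, at 12.2% of the mean. Its deposited log2 fold change, which is moderated, was 2.71 (SE 0.21, adjusted p = 3.43e-34 with DESeq2). Col1a2, the α2 chain of the same trimer, had 225, 190 and 262 in Chow and 731, 604 and 1076 in HFD, a 3.56-fold rise (adjusted p = 6.54e-12 with DESeq2). Col3a1 forms type III homotrimers, which are laid down with type I. Its counts were 373, 305 and 360 in Chow and 1553, 1517 and 2635 in HFD, a 5.49-fold rise (adjusted p = 6.32e-23 with DESeq2). For Col1a2 and Col3a1 the HFD mean leaned on replicate 38. Without it the ratios were 2.96 and 4.43, and that of Col1a1 was 8.13.

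Type V collagen starts fibril assembly and sets fibril width. Col5a1 rose 2.13-fold, from 173, 199 and 202 in Chow to 366, 338 and 517 in HFD (adjusted p = 1.89e-05 with DESeq2). Col5a2 rose 2.90-fold, from 50.2, 57.4 and 65.2 to 151, 133 and 218 (adjusted p = 1.39e-06 with DESeq2). The type V chains thus had smaller folds than the type I and type III chains, with no overlap between diets for either.

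The type IV genes had the highest counts of the 10 in Chow and the smallest folds. Col4a1 had 1243, 1339 and 1250 in Chow and 1963, 1851 and 2788 in HFD, a 1.72-fold rise (adjusted p = 0.000731 with DESeq2). Col4a2 had 756, 803 and 774 in Chow and 1171, 1180 and 1438 in HFD, a 1.62-fold rise (adjusted p = 2.57e-05 with DESeq2). In Chow these genes had the tightest spread of the 10, with SDs of 4.17% and 3.04% of their means.

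Type VI chains assemble as trimers inside the cell. Col6a1 rose 2.37-fold, from 130, 111 and 145 in Chow to 311, 213 and 391 in HFD (adjusted p = 8.35e-05 with DESeq2). Col6a2 rose 2.60-fold, from 62.3, 48.5 and 66.3 to 163, 104 and 193 (adjusted p = 0.000198 with DESeq2). Col6a3, whose C-terminal fragment is the signalling peptide endotrophin, rose 2.18-fold, from 242, 265 and 226 to 475, 437 and 688 (adjusted p = 7.94e-06 with DESeq2). Replicate 38 was the highest HFD library for each of the 3 chains, and the folds lay close together.

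The counts were also tested a second way, which changed the test, the genes fitted and the adjustment together. With edgeR's quasi-likelihood test on the listed genes, adjusted over the estimated number tested, 3 of the 10 passed: Col1a1 (adjusted p = 0.00747), Col3a1 (0.0151) and Col1a2 (0.0311). It called 3.52% of the 2870 listed genes fitted. The edgeR adjusted p of the other 7 ran from 0.0542 to 0.114, and all 10 had an unadjusted p under 0.05. With 1 library left out, edgeR called between 0 (without HFD replicate 4) and 3 (without HFD replicate 30) of the 10. It called 1 (Col1a1) when any Chow library was left out and 2 without HFD replicate 38. Of the 2870 genes it called 2 without HFD replicate 4, 51 without HFD replicate 30, 18 without HFD replicate 38 and 8 to 28 without a Chow library. With 3 libraries against 3 the smallest p of an exact permutation test is 0.1, which each of the 10 genes gave.

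**Figure D1:**
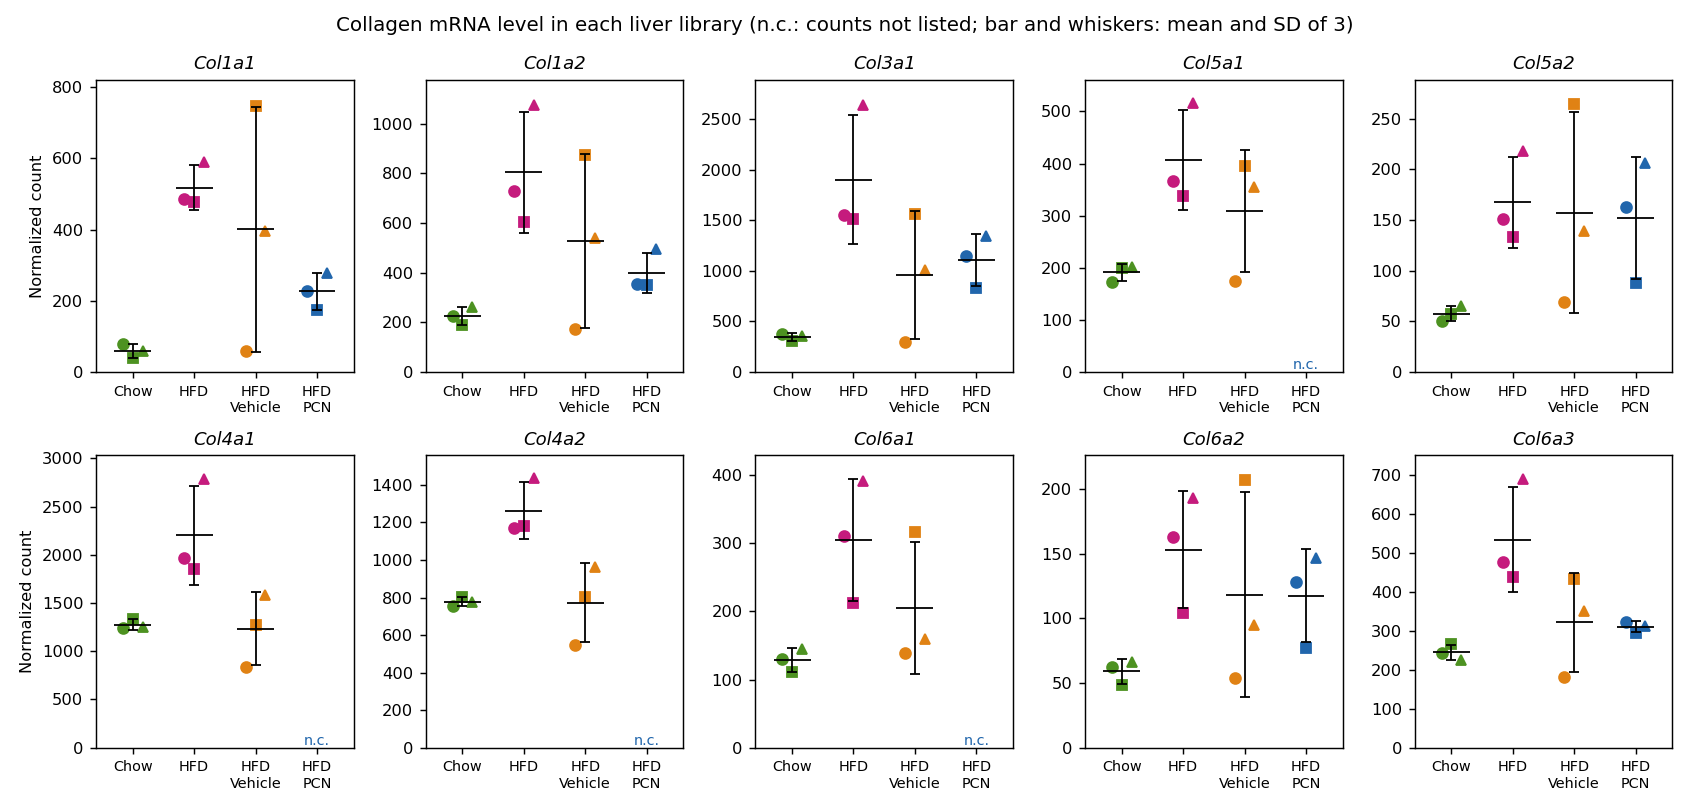
Normalized counts (linear axes from 0) of the 10 collagen genes in each library of the 4 groups, with mean and SD of 3. Each gene's HFD points lie above its Chow points, the HFD Vehicle points spread widely, and 4 genes have no listed counts in HFD PCN (n.c.).

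Because the genes differ in length, levels between genes were compared as normalized counts per kilobase of merged exons. In Chow, Col4a1 (171 ± 7.13, SD, n = 3) and Col4a2 (117 ± 3.57) were above every other member. They were followed by Col3a1 (35.3 ± 3.69), Col6a1 (29.4 ± 3.86), Col5a1 (22.6 ± 1.88), Col6a3 (20.4 ± 1.68) and Col1a2 (18.2 ± 2.89). The lowest levels per kilobase in Chow were those of Col1a1 (9.02 ± 3.15), Col6a2 (7.09 ± 1.12) and Col5a2 (6.01 ± 0.782). Col3a1 and Col6a1, the neighbours from Col5a1 to Col1a2, and those from Col1a1 to Col5a2 differed by less than their summed SDs. In HFD, Col4a1 was still the highest per kilobase (295 ± 68.5), and Col3a1 (194 ± 64.7) stood level with Col4a2 (191 ± 22.9). Col1a1 (78.9 ± 9.64) moved from the eighth to the fourth place and did not differ beyond the spread from Col6a1 (69.6 ± 20.3) or Col1a2 (64.7 ± 19.7). Col5a1 (47.9 ± 11.3) and Col6a3 (44.6 ± 11.3) came next in HFD, and Col6a2 (18.4 ± 5.43) and Col5a2 (17.4 ± 4.65) were again the lowest. The order depends on the length used. Per kilobase of the longest transcript, Col3a1 (342 ± 114) and Col4a1 (333 ± 77.3) led in HFD, and Col1a2 (150.0 ± 45.7) lay above Col1a1 (87.3 ± 10.7).

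The chains of 1 trimer did not all keep their proportions. Within a library the ratio of 2 genes does not depend on depth or scaling. The Col1a1 to Col1a2 ratio per exon kilobase was 0.67, 0.381 and 0.431 in Chow and 1.26, 1.49 and 1.04 in HFD. The HFD ratio was 2.61 times that of Chow, without overlap (exact permutation p = 0.1, the smallest possible, and 0.4 adjusted over 12 ratio tests). In HFD PCN it was 1.22, 0.933 and 1.06, again above every Chow library, and in HFD Vehicle it was 0.655, 1.62 and 1.39. HFD Vehicle replicate 15 alone lay inside the Chow range. Col4a1 to Col4a2 held at 1.46 ± 0.0231 in Chow, 1.53 ± 0.169 in HFD and 1.41 ± 0.0542 in HFD Vehicle (SD, n = 3), with overlapping libraries. Col6a1 to Col6a2 was 4.15 ± 0.196 in Chow and 3.78 ± 0.138 in HFD, a difference of 0.911 times without overlap (exact permutation p = 0.1, adjusted p = 0.4), and 3.66 ± 1.08 in HFD Vehicle. No ratio test passed after adjustment, and none of them could with 3 libraries a group.

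**Figure D2:**
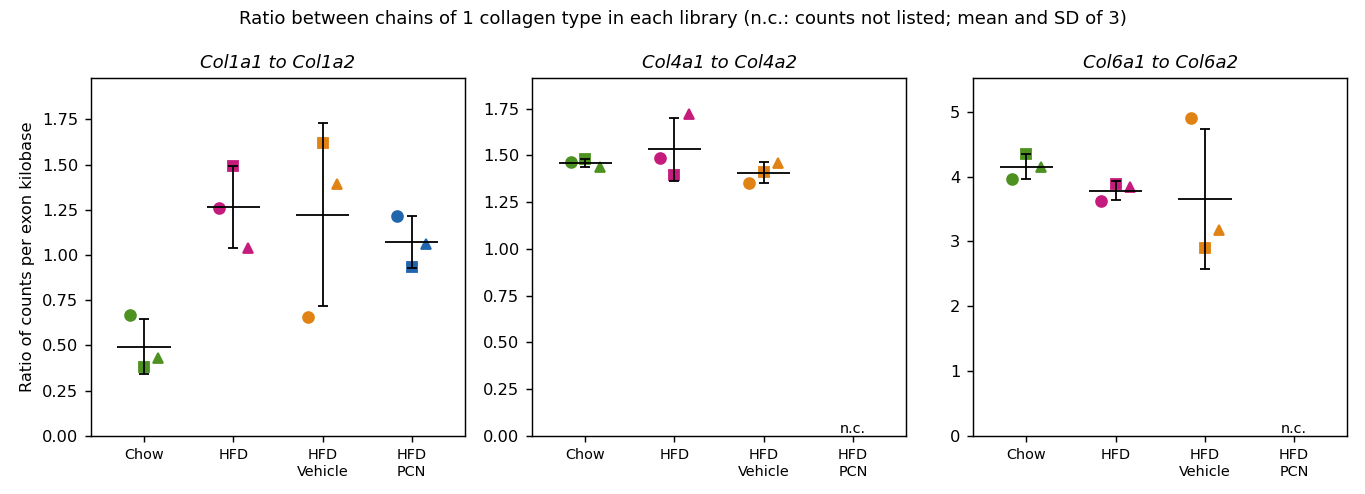
Ratio of normalized counts per exon kilobase (linear axes from 0) between chains of types I, IV and VI in each library, with mean and SD of 3. The Col1a1 to Col1a2 ratio is 0.381 to 0.67 in Chow and 1.04 to 1.49 in HFD, while the Col4a1 to Col4a2 ratio lies between 1.35 and 1.72 in the libraries of all 3 groups counted.

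Injection of vehicle was compared with no injection in mice on the same diet. None of the 10 collagen genes was called in HFD Vehicle against HFD by edgeR, which called 0.00726% of the 13775 genes kept, a single gene. The authors' deposited DESeq2 table also called none of the 10, beside 0.792% of 26015 genes. A DESeq2 refit called none, beside 2.0% of 13406 genes. All 10 had a lower mean with vehicle, with a median log2 ratio of -0.60 against 0.02 for all genes kept. At an unadjusted p under 0.05, edgeR had 2 of the 10 lower, where 6.71% of genes were lower at that threshold. They were Col4a1 (edgeR adjusted p = 0.304) and Col4a2 (edgeR adjusted p = 0.275). Col4a1 had 836, 1274 and 1588 normalized counts with vehicle against 1963, 1851 and 2788 without, a ratio of 0.56. Col4a2 had 549, 804 and 965 against 1171, 1180 and 1438, a ratio of 0.612. Without an expression filter edgeR did call Col4a2 (adjusted p = 0.0253), beside 0.83% of 26015 genes. These genes and Col6a3 (181, 432 and 350 against 475, 437 and 688) were the 3 of 10 whose groups did not overlap, where 9.99% of genes were lower with no overlap.

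The vehicle libraries spread more in these genes than in most others. The SD over the 3 vehicle libraries was 27.1% (Col4a2) to 85.7% (Col1a1) of the mean, with a median of 55.1%, where the median of the 10558 genes averaging 50 or more counts was 14.2% and the 90th percentile 35.6%. In HFD the members' SD was 12% to 33.4% of the mean, with a median of 26.0%, against 12.2% for all genes. Col1a1 had 59.5, 746 and 396 normalized counts in vehicle replicates 15, 23 and 55, and Col3a1 had 300, 1567 and 1010. Replicate 15 thus lay at Chow level for Col1a1 while replicate 23 lay above every HFD library. For the 10 genes together, replicate 15 was below the Chow range for 5, inside it for 4 and above it for 1 (Col5a2). Replicate 23 was above the HFD range for 3 (Col1a1, Col5a2 and Col6a2), inside it for 4 and below it for 3 (Col4a1, Col4a2 and Col6a3). Without replicate 15 the Col1a1 ratio of vehicle to HFD was 1.1, and without replicate 23 it was 0.44. For Col5a2 these values were 1.21 and 0.624, so the sign of both differences depended on the library. For Col4a1 they were 0.65 and 0.551, lower with vehicle in each case.

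**Figure D3:**
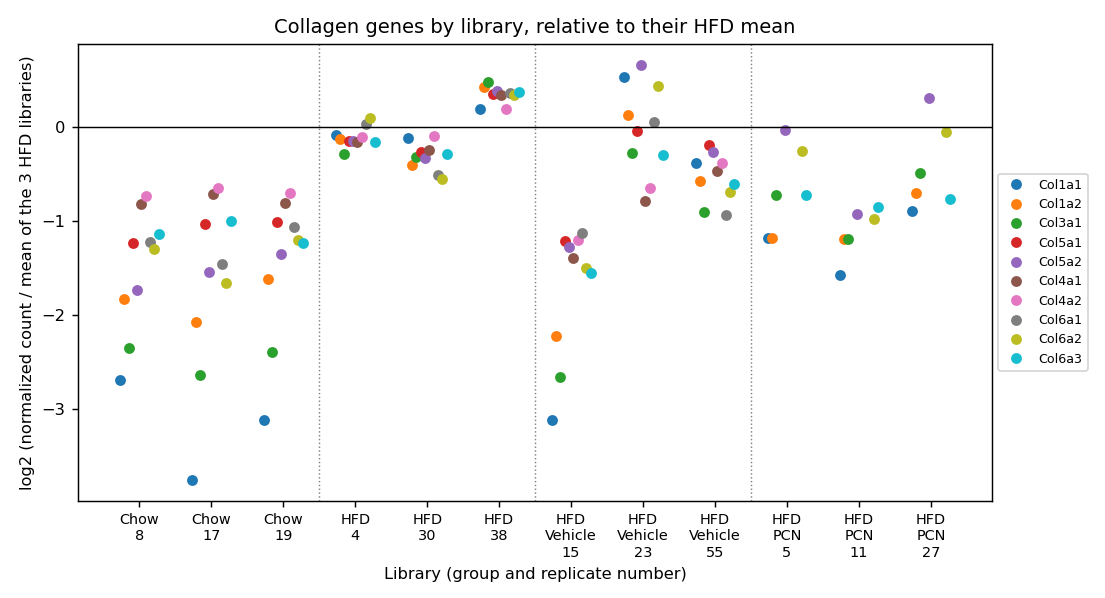
Each collagen gene in each library as log2 of its normalized count over its mean in the 3 HFD libraries. HFD Vehicle replicate 15 lies in or near the range of the Chow libraries, replicate 23 is higher for Col1a1, Col5a2 and Col6a2 than any HFD library, and HFD replicate 38 is above 0 for all 10 genes.

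Against Chow, HFD Vehicle had 1 of the 10 genes called, where 3.1% of about 25522 genes tested were called, 1.72% higher and 1.38% lower. Col5a2 rose 2.73-fold, from 50.2, 57.4 and 65.2 to 69.0, 264 and 139 normalized counts (adjusted p = 0.0239 with DESeq2 in the authors' deposited table). edgeR gave it an adjusted p of 0.313 and called 3.18% of 2863 listed genes. For Col5a2, without vehicle replicate 23 the ratio was 1.81. Col1a1 had a larger ratio, 6.76, and was not called. Its ratio was 3.85 without replicate 23 and 9.64 without replicate 15. With replicate 15 left out edgeR called Col1a1 and Col3a1 (adjusted p = 0.0467 for each) and not Col5a2, beside 26 of the 2863. Col4a1 and Col4a2 had ratios of 0.965 and 0.994 between these groups, where HFD without injection had 1.72 and 1.62 over the same Chow libraries.

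PCN was compared with vehicle, the injected control, and with the other groups, which share libraries between comparisons. None of the 10 genes was called in HFD PCN against HFD Vehicle, beside 1.71% of about 25882 genes. The 6 genes counted in both had ratios between 0.565 (Col1a1) and 1.15 (Col3a1), an edgeR adjusted p of 1 where edgeR called 0.615% of 2440 listed genes, and none had an unadjusted p under 0.05. Col1a1 had 228, 173 and 278 normalized counts with PCN, all inside the vehicle range of 59.5 to 746. The Col1a1 ratio was 0.994 without vehicle replicate 23 and 0.396 without replicate 15.

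Against uninjected HFD, 3 of the 10 were lower in HFD PCN, where 3.15% of about 25659 genes were called and 1.25% were lower. Col1a1 fell 2.29-fold, to 228, 173 and 278 from 486, 476 and 590 (adjusted p = 5.84e-06 with DESeq2, 0.0473 with edgeR). Col1a2 fell 2.01-fold, to 354, 352 and 494 from 731, 604 and 1076 (adjusted p = 0.00405 with DESeq2, 0.15 with edgeR). Both type I chains thus had no PCN library as high as any HFD library. Col6a3 fell 1.72-fold, to 323, 295 and 312 from 475, 437 and 688 (adjusted p = 0.0138 with DESeq2, 0.149 with edgeR). Its PCN libraries were the closest to each other among the 6 genes counted there, with an SD of 4.53% of the mean. Col3a1 was not called, at 1145, 829 and 1346 with PCN against 1553, 1517 and 2635, a ratio of 0.582 without overlap (edgeR unadjusted p = 0.0177). Col5a2 (163, 87.6 and 206 with PCN) and Col6a2 (128, 77.5 and 147) overlapped HFD, with ratios of 0.91 and 0.764. Without HFD replicate 38 the ratios were 0.47 for Col1a1, 0.599 for Col1a2 and 0.68 for Col6a3, and that of Col5a2 turned to 1.07. edgeR could be run on the 6 genes with PCN counts, and called 1 of them (Col1a1) beside 5.55% of 2449 listed genes. With any 1 of the 6 libraries left out it called 0 of the 6, beside 0 to 192 of the listed genes. HFD PCN differs from HFD by both the compound and the injection, which cannot be told apart in this comparison.

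Against Chow, 5 of the 10 genes were higher with PCN, where 8.1% of about 25101 genes were called, 4.43% higher and 3.67% lower. Col1a1 rose 3.82-fold (adjusted p = 1.57e-09 with DESeq2), Col3a1 3.20-fold (9.25e-15), Col5a2 2.64-fold (0.000206), Col6a2 1.99-fold (0.0115) and Col1a2 1.77-fold (0.00204). Col6a3 had a ratio of 1.27 and was not called, although its PCN libraries lay above every Chow library. edgeR called Col3a1 (adjusted p = 0.00802) and Col1a1 (0.0182) of the 6 counted, beside 34.1% of 2241 listed genes. With a library left out it called between 1 and 4 of the 6, beside 138 to 711 of the 2241. The 4 were reached without PCN replicate 11, the lowest PCN library for 6 of 6 counted genes, against 40.3% of the 2455 genes with PCN counts.

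**Figure D4:**
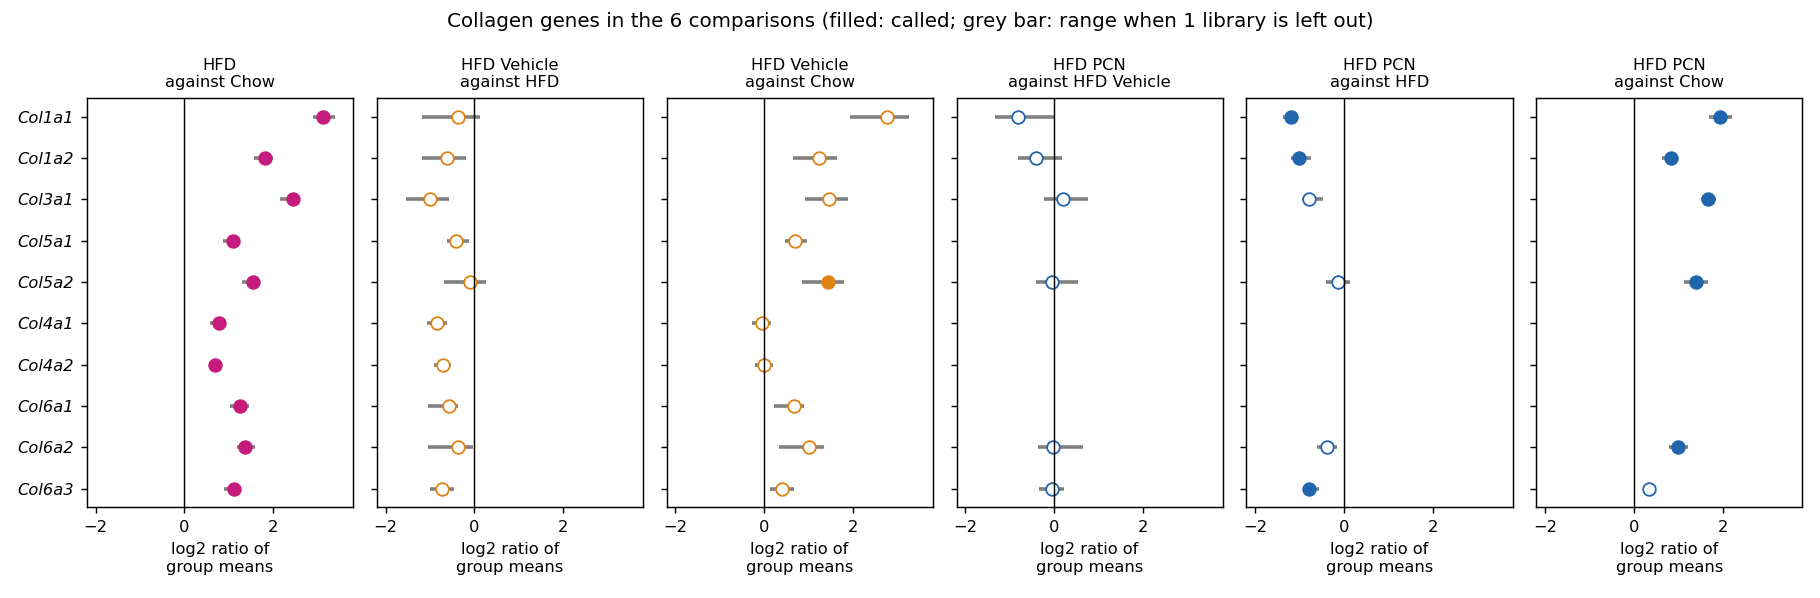
Log2 ratio of group means for the 10 collagen genes in the 6 comparisons, filled where called and with a grey bar for the range when 1 library is left out. All 10 are called to the right in HFD against Chow, and the bars are wider in the comparisons that use HFD Vehicle.

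The other collagen chains changed in part. Of 29 measured, 4 rose and 1 fell with HFD against Chow in the authors' deposited table. Over all genes tested there, 2.81% were called higher and 2.05% lower. Col14a1, a fibril-associated collagen, rose 1.52-fold, from 1758 ± 158 to 2677 ± 354 (SD, n = 3). Col27a1 rose 1.69-fold and Col15a1, a basement membrane zone proteoglycan, rose 2.26-fold. Col6a5, a further type VI chain, rose from 0.289 ± 0.5 to 13 ± 8.16, levels that rest on few reads. Col13a1, a transmembrane collagen, fell 1.56-fold. Col5a3, a further type V chain (362 ± 83 in HFD), and Col4a5, a further type IV chain (75.2 ± 37.3), were called in no comparison. With vehicle, Col14a1 was called lower than in uninjected HFD by the authors' deposited table, at 1247 ± 329, a 2.15-fold fall, while edgeR called none of the other chains. Col27a1 was called higher than Chow in HFD Vehicle as well (4.49-fold, 610 ± 420) and in HFD PCN (2.11-fold), and Col15a1 was called higher than Chow in HFD PCN (2.87-fold). Col18a1, the source of endostatin, had the highest count of any other chain, at 21294 ± 3278 in HFD and 23888 ± 2142 in HFD Vehicle, and was called in no comparison.

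The proteins that fold, cut, cross-link and hold collagen were taken from 7 lists, and calls are those of the authors' deposited tables. In HFD against Chow, where 2.81% of genes were called higher and 2.05% lower, 7 of 16 collagen-binding matrix proteins rose. They included Thbs1 (2.84-fold), Fbln2 (2.77-fold), the matricellular protein Postn (2.31-fold), the collagen chaperone Sparc (2.15-fold) and Thbs2 (2.07-fold). Of 14 cleavage and cross-linking genes 4 rose, the lysyl oxidase Loxl2 (2.26-fold), the procollagen N-proteinase Adamts2 (2.06-fold), its C-proteinase enhancer Pcolce (1.97-fold) and the transglutaminase Tgm2 (1.70-fold), and the C-proteinase Bmp1 fell 1.37-fold. Of 23 TGF-beta and PDGF pathway genes 5 rose and 2 fell. Among those that rose were the latent TGF-beta binding protein Ltbp2 (3.21-fold), the receptor Tgfbr2 (1.74-fold) and Pdgfrb, the PDGF receptor of stellate cells (1.58-fold). The 2 that fell were the inhibitor Smad7 (1.62-fold) and Smad4 (1.42-fold). Of 20 folding and modification genes only Fkbp10 rose (3.13-fold), and of 18 basement membrane partners Smoc2 (1.95-fold) and Nid1 (1.74-fold) rose. Of 14 collagen-degrading proteases and inhibitors, Timp1, an inhibitor of matrix proteases, rose from 0 in the 3 Chow libraries to 13.9 ± 7.35, and Mmp14 fell 1.41-fold. None of 10 collagen receptors was called.

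With vehicle against uninjected HFD, where 0.511% of genes were called lower in the deposited table and 0.281% higher, 4 of 18 basement membrane partners fell: Lamb3 (2.59-fold), Smoc2 (2.16-fold), the laminin chain Lama2 (2.10-fold) and the type IV cross-linking enzyme Pxdn (1.92-fold). Thbs2 (2.60-fold) and Sparc (1.87-fold) fell among the matrix proteins and Ctgf (1.90-fold) among the TGF-beta and PDGF genes. edgeR called 0 genes of these 3 lists. Its filter kept 17 basement membrane partners, 15 matrix proteins and 22 signal genes. Of these, 9, 8 and 8 had an unadjusted p under 0.05 in either direction, where 1718 of all 13775 genes did. The median log2 ratios of the 3 lists were -0.59, -0.77 and -0.37, beside -0.59 for the 10 collagen genes in the same fit and 0.02 for all genes. With PCN against uninjected HFD, where 1.9% were higher and 1.25% lower, Lamb3 (6.53-fold), Lama2 (2.55-fold), Tgfb3 (2.37-fold), Postn (2.36-fold) and Thbs2 (2.11-fold) fell, and Colgalt2, a collagen galactosyltransferase (3.46-fold), and Smoc2 (1.64-fold) rose. With PCN against vehicle, where 1.07% were higher and 0.641% lower, Smoc2 (3.53-fold) and Colgalt2 (3.24-fold) rose and Lamb3 (2.52-fold) fell, and no gene of the other lists was called. PCN against Chow called 4 of 20 folding and modification genes higher, Colgalt2 (3.08-fold), Fkbp10 (2.95-fold), Ppib (1.40-fold) and P4hb, a subunit of prolyl hydroxylase (1.36-fold). The elastase Mmp12 was called higher than Chow with vehicle (6.53-fold) and with PCN (6.08-fold). In uninjected HFD it had 121 ± 133 normalized counts against 10.8 ± 5.0 in Chow and was not called.

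**Figure D5:**
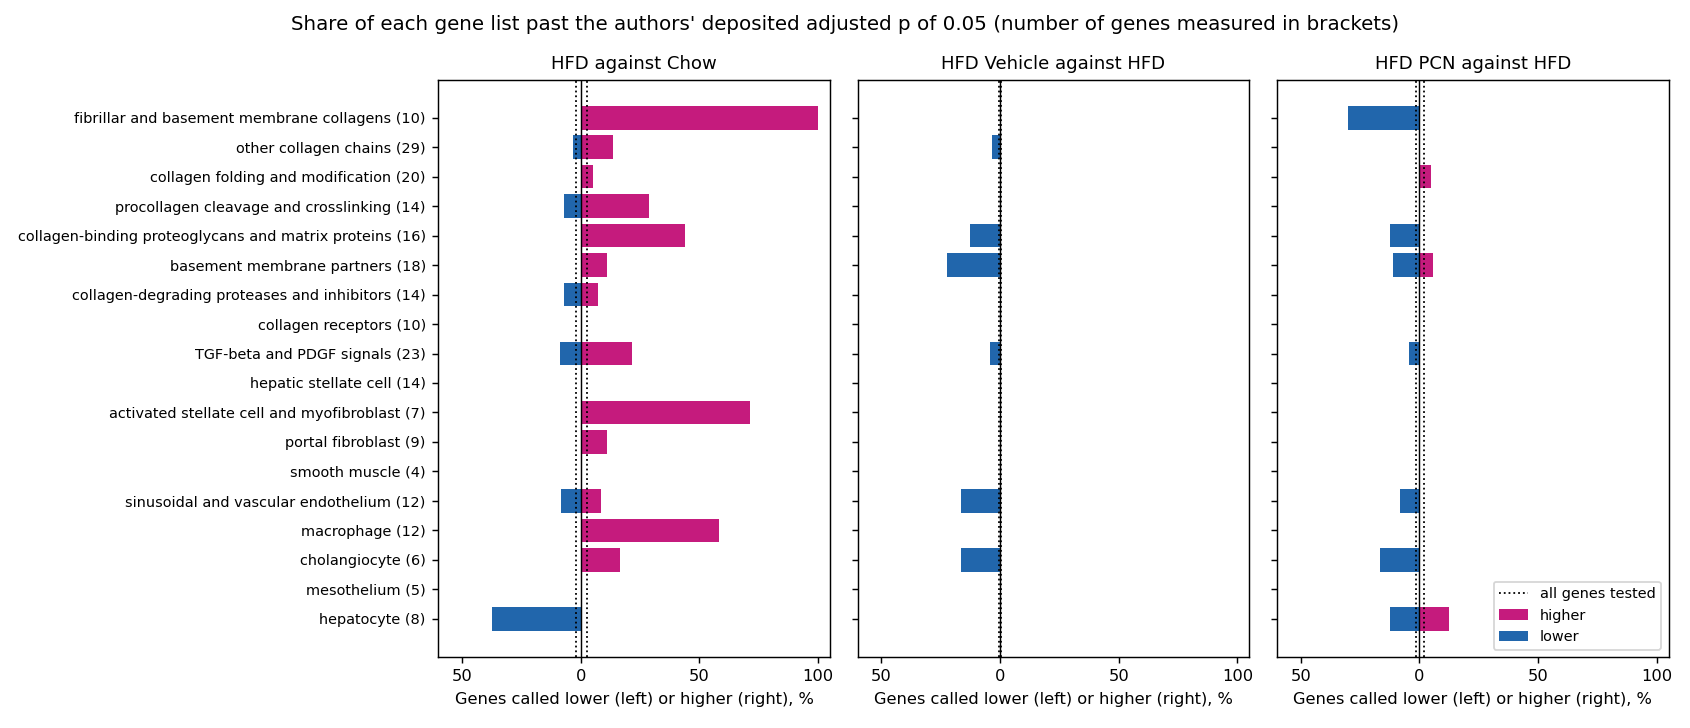
Percent of each list's measured genes called higher (right of 0) or lower (left of 0) in the authors' deposited tables for 3 comparisons, with dotted lines at the percent for all genes tested. The collagen genes reach 100% higher in HFD against Chow. Most other lists also extend to the right of the dotted line there, some of them through 1 called gene.

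Markers of the cells that could supply collagen mRNA moved in part with these genes. In HFD against Chow, where 2.81% of genes were called higher, 5 of 7 markers of activated stellate cells and myofibroblasts rose. They were Spp1 (4.10-fold), Loxl2, Tagln (2.02-fold), Vim (1.85-fold) and Timp1. Acta2, on the same list, was not called with diet and was called higher than Chow only in HFD PCN (3.28-fold). Spp1 was the most abundant of the 7, at 503 ± 325 in HFD. The summed level of the 6 counted in both groups was 781 to 1729 in HFD and 454 to 510 in Chow. A marker has Chow counts only if a comparison with Chow called it, so this sum follows from the calls and adds nothing to them. Loxl2 and Timp1 are also in the matrix lists above. Of 14 markers listed for hepatic stellate cells, without regard to activation, none was called in any comparison. Their summed level was 9684 to 10281 in HFD and 6657 to 9291 in HFD Vehicle. The most abundant, Reln, had 4232 ± 73.5 in HFD. Of 12 macrophage markers 7 rose with diet, beside the same 2.81% of all genes, among them Trem2 (4.93-fold) and Cd5l (1.79-fold). The 8 with Chow counts, likewise ones that a comparison with Chow called, summed to 4931 to 8352 in HFD and 3039 to 4101 in Chow. HFD replicate 38, the highest collagen library of its group, also had the highest sums of the activated stellate markers (1729, against 781 and 1120) and of all 12 macrophage markers (13684, against 8325 and 8454). HFD Vehicle replicate 15, the lowest collagen library, had the lowest activated stellate sum of its group (651, against 1031 and 884). Its sums of portal fibroblast (123, against 213 and 127) and smooth muscle markers (121, against 125 and 146) were the lowest by little. It also had the lowest sums of cholangiocyte (95.4, against 176 and 278) and adipocyte markers (0.945, against 0.991 and 3.05), the latter resting on few reads. It did not have the lowest sum of hepatic stellate (7273, against 9291 and 6657), endothelial (9661, against 8681 and 6245) or macrophage markers (8783, against 8793 and 6042). Nor did it have the lowest sum of mesothelial (134, against 166 and 82.4) or hepatocyte markers (2121093, against 2201533 and 1401600). The part of these cell types in the collagen levels was not tested.

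Among the other markers, Fbln2 was the only one of 9 portal fibroblast genes to rise with diet, and none of 4 smooth muscle or 5 mesothelial genes did. Of 12 endothelial markers Lyve1 rose (1.51-fold) and Kdr fell (1.47-fold) with diet. Lyve1 (2.38-fold) and Cdh5 (1.73-fold) fell with vehicle in the deposited table, and the endothelial sum was 10026 to 11286 in HFD and 6245 to 9661 in HFD Vehicle. Lyve1 also fell with PCN against HFD (1.66-fold). Of 6 cholangiocyte markers Krt23 rose with diet (2.85-fold) and fell with vehicle (4.41-fold) and with PCN against HFD (6.05-fold). Of 8 hepatocyte markers 3 fell with HFD against Chow, Serpina1a (1.74-fold), Hnf4a (1.46-fold) and Apoa1 (1.32-fold), and Alb, at 1213071 ± 182577 in HFD, marked the tissue as liver. In HFD PCN against Chow, where 5 of the 10 collagen genes were higher, 6 of the 8 hepatocyte markers were lower (3.67% of all genes), from 1.53-fold (Apob) to 2.15-fold (Alb), and Ttr was 1.86-fold lower in HFD PCN than in HFD. The summed level of the 7 hepatocyte markers with PCN counts was 934396 to 1458237 in HFD PCN, 2211835 to 2486969 in Chow and 1542542 to 2139478 in HFD. A marker has PCN counts only if a PCN comparison called it, so this sum follows from the calls and adds nothing to them. Of the 7, 6 are those called lower against Chow, and the other, Serpina1a, was 1.58-fold higher in HFD PCN than in HFD. The part of the hepatocyte markers in the collagen ratios was not tested. Markers of adipocytes, which also make type VI collagen, summed to at most 3.97 normalized counts in HFD and 3.05 in HFD Vehicle, so those defining markers were near 0.

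The genes whose levels were most like the collagen genes over the 12 libraries were sought among 1949 others that averaged 50 or more counts. The profile was the mean standardised log2 level of the 6 collagen genes counted in every library. Hk2, a hexokinase, had the highest Pearson r (0.936), followed by the macrophage metalloelastase Mmp12 (0.919), the reticulon Rtn4 (0.916), Morc4 (0.907) and the pyruvate kinase Pkm (0.89). Hk2 had 31.1 ± 7.02 normalized counts in Chow, 117 ± 57.9 in HFD, 60.4 ± 22.0 in HFD Vehicle and 63.9 ± 15.8 in HFD PCN (SD, n = 3). In vehicle replicates 15, 23 and 55 Mmp12 had 10.4, 116 and 85.5, the order of Col1a1, which all 5 genes had. They were picked for likeness over these same libraries, so the order adds nothing to the correlations. These correlations share libraries, scaling and the difference between diets, and genes counted in all 12 libraries are ones that some table called.

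Since the members moved together with diet, the 250 bases before their RefSeq starts (GRCm38.p6) were searched on both strands for short motifs. A promoter entry matched 8 of the 10 genes. Of the 250 bases, annotated untranslated exons of any gene covered 127 in Col1a2, 250 in Col4a1 and 205 in Col4a2. They covered 124 in Col6a1, 226 in a Col6a2 window and 0 in Col3a1 and Col5a1. A match in a covered window need not lie upstream of every transcript. The 2 windows printed are the poorest and the richest in G and C of the members, Col3a1 at 35.2% and Col5a1 at 76.4%. The median G and C content of all genes was 52.0%. Capitals mark the TATA box letters TATAAA in Col3a1 and the GC box letters GGGCGG or their reverse complement in Col5a1. The TATAAA match lies near the middle of the Col3a1 window, not at the end next to the start. A match is one of letters only, and whether any match acts as a promoter element was not tested.
Col3a1, chr1:45311288-45311537, plus strand: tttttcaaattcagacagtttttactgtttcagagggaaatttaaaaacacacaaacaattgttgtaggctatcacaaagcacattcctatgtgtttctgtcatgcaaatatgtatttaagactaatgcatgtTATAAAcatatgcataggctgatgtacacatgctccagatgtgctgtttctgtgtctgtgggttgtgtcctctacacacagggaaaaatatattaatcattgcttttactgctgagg
Col5a1, chr2:27886175-27886424, plus strand: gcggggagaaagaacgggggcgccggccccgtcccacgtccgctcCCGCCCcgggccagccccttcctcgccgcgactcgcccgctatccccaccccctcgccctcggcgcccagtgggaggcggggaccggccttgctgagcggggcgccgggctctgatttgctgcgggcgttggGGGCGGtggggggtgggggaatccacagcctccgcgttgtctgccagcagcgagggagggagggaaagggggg
TATAAA matched in 1 of the 8 genes (Col3a1) and in 12.9% of 27025 promoter windows of all genes. GGGCGG matched in 4 of 8 (Col1a2, Col5a1, Col4a2, Col6a2; 32.7% of all), and CCAAT in 3 of 8 (Col1a2, Col4a1, Col4a2; 34.2% of all). The SMAD-type repeat CAGACA matched in 3 of 8 (Col1a2, Col3a1, Col5a1; 17.1% of all) and the palindrome GTCTAGAC in none (0.185% of all). Direct repeats of the nuclear receptor half-site AGGTCA with 3 or 4 bases between the copies matched in none of the 8, and in 0.0074% and 0.0111% of all windows. Col3a1 and Col5a1, whose promoters lie at opposite ends of the G and C range, rose 5.49-fold and 2.13-fold with diet.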

How the data were processed

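Liver RNA was measured in 12 libraries, 3 a group. The submitters' processing notes name HISAT2, HTSeq, DESeq2 and the builds GRCm38 and mm10, without versions or settings. The files are 6 pairwise tables, in which the authors deposited read counts per gene that were not normalized, beside log2 fold changes, standard errors and p-values, per the file headers. Only the HFD Vehicle against HFD table gave values for all genes (26015). The others gave them for called genes, so their main calls are the authors' deposited adjusted p under 0.05, and the number of genes tested was estimated from deposited p and adjusted p.

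Size factors were recovered from the counts and the deposited means and brought to 1 scale (largest difference 0.517%). HFD Vehicle against HFD was tested with edgeR 4.0.16 (quasi-likelihood, TMM, 13775 genes kept by filterByExpr, R 4.3.3). The listed genes of the other tables were tested with edgeR as an alternative, with the dispersion prior of the complete table; its adjusted p is an upper bound. A gene has Chow or PCN counts only if some table listed it. Alternatives were DESeq2 1.42.0, no filter, geometric means (pseudocount 1), totals as scaling, another gene length, and leaving out each replicate. The scripts were tested on simulated data. Single values were tested by exact permutation. Totals in HFD and HFD Vehicle ran from 7466378 to 38161486 counts, and precision is lowest in HFD replicate 38.

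The 10 genes and the 19 lists of 241 genes were chosen with earlier results of these data known. Genes named were the 10 in every comparison, every called other collagen and some uncalled ones, and up to 5 called genes of a pathway list. Also named were up to 3 called genes of a marker list (more for activated stellate cells) and its most abundant gene. The 5 genes with the most similar profile were named too. The text gives a selection of these. Positions are those of the files, with starts raised by 1, after which 95.5% matched GENCODE M21. Groups share no replicate number, so nothing was paired.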

Additional observations from a re-analysis of the deposited data

How the results depend on the processing

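No paired analysis was possible because the groups compared share no replicate numbers. On the listed genes edgeR called 3 of 10 collagen genes in HFD against Chow (10 in the authors' table), beside 3.52% of listed genes. It called 0 of 10 in HFD Vehicle against Chow (1), beside 3.18%. Of the 6 counted with PCN it called 1 in HFD PCN against HFD (3), beside 5.55%, and 2 in HFD PCN against Chow (5), beside 34.1%. The test, the genes fitted and the adjustment changed together here, so their parts cannot be told apart. In HFD Vehicle against HFD edgeR without a filter called 1, beside 0.83% of genes, where it called 0 with it, beside 0.00726%. With 1 library left out, edgeR called 0 to 3 in HFD against Chow (0.0697% to 1.78% of listed genes) and 0 to 2 in HFD Vehicle against Chow (0.0349% to 1.75%). It called 0 to 0 in HFD PCN against HFD (0% to 7.84%) and 1 to 4 in HFD PCN against Chow (6.16% to 31.7%). The cause was not tested. Of 346 alternative values of the 48 folds, 0 turned a called direction. None could, since the groups of each called fold did not overlap. Across the same values, 19 took an uncalled fold to the other side of 1 and 11 moved by over 1.5 times. Of these 11, 9 were ratios of Col1a1, Col5a2 or Col6a2 without HFD Vehicle replicate 23 and 2 were geometric means of Col1a1. Per kilobase of the longest transcript the Col1a1 to Col1a2 ratio was 0.235 in Chow, 0.602 in HFD, 0.582 in HFD Vehicle and 0.511 in HFD PCN, Col4a1 to Col4a2 was 1.6 in Chow and 1.54 in HFD Vehicle, and Col6a1 to Col6a2 was 2.62 in Chow, 2.38 in HFD and 2.31 in HFD Vehicle, since the lengths differ. Depth limits Col1a1, Col5a2 and Col6a2 in Chow most, where raw counts ran from 30 to 92 reads. Intervals between replicates rest on 3 libraries a group.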
